A study of Caenorhabditis elegans with 16 samples.

Results

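Worms that already received curcumin were compared with worms that received curcumin and sulforaphane together, to ask which transcripts sulforaphane adds or removes in the presence of curcumin. The comparison used 8 of the 16 polyA RNA sequencing libraries of the series: 4 from the curcumin group and 4 from the combination group. The animals were *Caenorhabditis elegans* worms of strain SS104, collected whole, with the temperature-sensitive allele glp-4(bn2) in all groups. They were kept at 15 °C and shifted to 24 °C as L2/L3 larvae, so that every group was sterile and lacked most germ cells. Worms were placed as L4 larvae on defined medium with *Escherichia coli* OP50 whose lawn had been overlaid with the compounds, and RNA was taken on day 3 of adulthood. The curcumin group received curcumin phytosome, a complex of curcumin with phospholipid, at 5 mg/mL. The combination group received the same curcumin dose plus sulforaphane at 0.625 mg/mL. An untreated control group and a group given sulforaphane alone at 0.625 mg/mL, with 4 libraries each, served as the matching comparison without curcumin. No vehicle is named for the control, and the compounds were given on live bacteria, so effects through the food cannot be told apart from effects on the worm. The submitters describe the replicates as independent biological replicates.

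Sulforaphane is an isothiocyanate from cruciferous plants, and curcumin is a polyphenol from turmeric. Isothiocyanates are electrophiles that react with thiols such as glutathione. In mammals sulforaphane is known as an activator of the transcription factor Nrf2, whose worm counterpart is SKN-1. Animals clear foreign compounds in steps: cytochromes P450 and dehydrogenases modify them, glutathione S-transferases and UDP-glucuronosyltransferases attach a polar group, and ABC transporters carry them out of the cell. In the worm the intestine does much of this work and also stores lipid, makes yolk and secretes digestive and antimicrobial proteins.

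Adding sulforaphane to curcumin changed 1049 of the 14328 tested genes, or 7.32%, at an adjusted p under 0.05 (edgeR quasi-likelihood test, Benjamini-Hochberg adjustment). Of these, 666 were higher (4.65% of tested genes) and 383 were lower (2.67%) in the combination. A change of at least 2-fold was seen in 116 of the higher and 118 of the lower genes. The 4 values of both groups did not overlap in 917 of the 1049 genes, while 10.9% of all tested genes had groups that did not overlap. The median log2 change over all tested genes was 0.00206, and the median size over the called genes was 0.549. Total counts per library ranged from 14348201 to 19964755 over the 8 libraries with a mean of 16842808 ± 2257673 in the curcumin group and 15711972 ± 1025644 in the combination group (SD, n = 4). In a principal component analysis of these 8 libraries, component 1 held 35.2% of the variance and 97.9% of the variance along it lay between the groups. Along component 2, 1.54% of the variance lay between the groups, and it set replicates 1 and 2 of both groups (7.609 to 21.62) apart from replicates 3 and 4 (-19.75 to -13.51). Combination replicate 3 stood apart along component 3, which held 13% of the variance. The worms were sampled whole, so fewer cells of a type and less RNA per cell cannot be told apart.

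The same addition can be read without curcumin, from the sulforaphane and control libraries, which share no library with the other comparison. There, 961 genes (6.71%) were called, 621 higher (4.33%) and 340 lower (2.37%). When libraries were scaled by their total alone, the split without curcumin was 521 higher and 454 lower. Of the 666 genes that rose with curcumin present, 331 also rose without it, which is 49.7% of the former and 53.3% of the latter, and 3 fell. Of the 383 genes that fell with curcumin present, 147 also fell without it, which is 38.4% and 43.2%, and 8 rose. Called or not, the sign was the same for 598 of the 666 (89.8%) and for 318 of the 383 (83%), against 62.7% of all tested genes. The median log2 change of the 666 was 0.51 with curcumin and 0.33 without, and that of the 383 was -0.62 and -0.29; the genes were selected on the first value of each pair. Across the 14328 genes, both log2 changes had a Pearson correlation of 0.604 and a Spearman correlation of 0.344. All libraries were scaled together, and genes are not independent replicates.

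**Figure D1:**
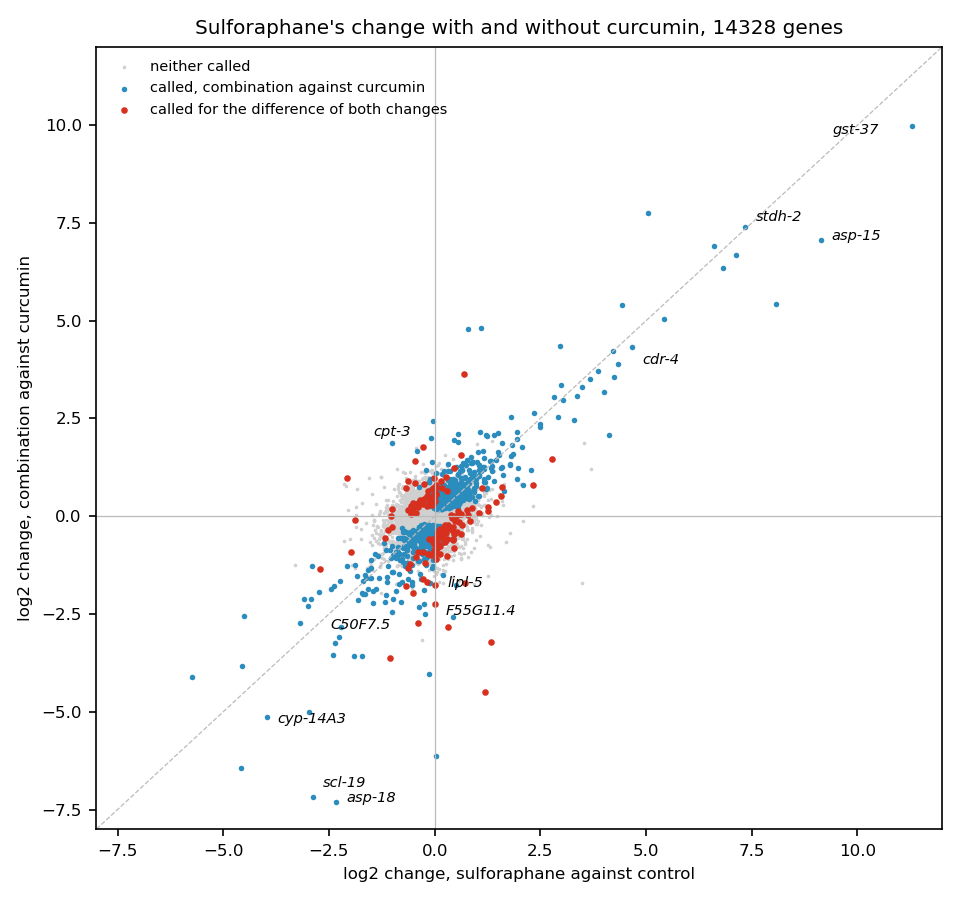
Each point is 1 of the 14328 tested genes, with the log2 change of sulforaphane against control on the x axis and of the combination against curcumin on the y axis; the dashed line marks equal changes. Blue points are the genes called for the combination against curcumin, and red points are the 142 genes whose 2 changes differed by the test of the difference, among them *cpt-3* above the line and *F55G11.4*, *C50F7.5* and *lipl-5* below it.

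The difference between both changes was tested itself, as the interaction of sulforaphane with curcumin. It was called for 142 genes (0.991% of tested genes), with 54 above 0 (0.377%), where the change with curcumin was the more positive one, and 88 below 0 (0.614%). Of the 88 genes, 57 were also called lower in the combination than with curcumin, and of the 54 genes, 38 were called higher. Among the 116 rises of at least 2-fold, 83 (71.6%) also rose without curcumin and 7 (6.03%) were called for the interaction. Among the 118 falls of at least 2-fold, 63 (53.4%) also fell without curcumin and 19 (16.1%) were called for the interaction, 18 of them with the larger fall in the presence of curcumin. The median log2 change of these falls was -1.7 with curcumin and -0.91 without. For the rises it was 1.54 and 1.17, and 6 of their 7 interactions lay on the side of a larger change with curcumin. Rises and falls were selected on the change with curcumin, which is also a term of the interaction. That selection favours a larger change with curcumin.

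Many glutathione S-transferases, which couple glutathione to electrophiles, rose with the addition of sulforaphane. Of 45 tested members, 18 (40%) were called higher and none lower, against 4.65% and 2.67% of all tested genes, and the median log2 change over the 45 was 0.37. Their summed level was 663 to 751 CPM (read counts scaled to the library size after trimmed-mean normalisation) in the curcumin libraries and 1454 to 1753 CPM in the combination libraries. Without curcumin, 17 members were higher and 2 lower, and no member was called for the interaction. The number called higher lay between 14 and 21 over all alternatives of processing.

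*gst-37* (NCBI Gene 189575, chromosome V, 1921621 to 1922381, WBcel235) had 0.101, 0, 0 and 0.0575 CPM in curcumin replicates 1 to 4 and 54.3, 58.6, 51.9 and 45.8 CPM in combination replicates 1 to 4. Its transcript was close to absent in every curcumin library and present in every combination library. The curcumin libraries held 3 reads of it in all, 2 of them in replicate 1, and the combination libraries 3247, a ratio of 1180 with an exact Poisson 95% interval from 405 to 5740. The level was 0.0156 ± 0.0312 CPM in untreated worms and 59.6 ± 8.65 CPM with sulforaphane alone (SD, n = 4). *gst-5* (187537, chromosome II, 10950352 to 10951603), an abundant member, had 34, 37.8, 33.4 and 39.8 CPM with curcumin and 560.1, 625, 508 and 461 CPM with the combination. The groups were far apart (log2 change 3.89, SE 0.12, edgeR adjusted p 2.75e-17). *gst-31* rose from 0.503 ± 0.285 to 40.4 ± 2.74 CPM (SD, n = 4; log2 change 6.35, SE 0.22, edgeR adjusted p 1.43e-16), and *gst-35* from 3.74 ± 0.225 to 29.6 ± 3.72 CPM (log2 change 2.98, SE 0.14, edgeR adjusted p 7.46e-14). *gst-4*, whose reporter is the usual readout of SKN-1 activity, rose less, from 42.1 ± 9.29 to 74.5 ± 6.54 CPM (SD, n = 4; log2 change 0.82, SE 0.12, edgeR adjusted p 3.5e-05). *gst-10* did not pass the test, at 49.5 ± 10.9 and 60.8 ± 9.25 CPM (edgeR adjusted p 0.332). Glutathione S-transferase genes have close paralogs, and how reads shared between them were counted was not tested.

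Some genes around SKN-1 and glutathione rose, by smaller amounts. Of 32 tested regulators and glutathione or thioredoxin enzymes, 8 (25%) were called higher and 2 (6.25%) lower, with a median log2 change of 0.14. Over all tested genes the shares were 4.65% and 2.67%. The called rises ran from 0.27 to 0.995, and the 2 falls were larger, at -1.02 and -1.27. *skn-1* itself had 164, 167, 180.4 and 170 CPM with curcumin and 215, 220.2, 202 and 213 CPM with the combination. Every combination library was above every curcumin library (log2 change 0.32, SE 0.06, edgeR adjusted p 0.00175). *wdr-23*, which encodes the adaptor that targets SKN-1 for degradation, rose slightly (log2 change 0.33, SE 0.07, edgeR adjusted p 0.003). *gcs-1*, the rate-limiting enzyme of glutathione synthesis, was 175 ± 0.992 and 210.3 ± 17.2 CPM (SD, n = 4; log2 change 0.27, edgeR adjusted p 0.0136). That call was lost without combination replicate 2 (adjusted p 0.0649) or replicate 3 (adjusted p 0.0564). *gsr-1*, glutathione reductase, rose by a log2 change of 0.34 (edgeR adjusted p 0.000345), and *gpx-1*, a glutathione peroxidase, by 0.57 (edgeR adjusted p 0.000145). *nit-1*, a nitrilase gene, showed the largest rise of the 8, from 27.2 ± 1.84 to 54.3 ± 2.77 CPM (SD, n = 4; log2 change 0.99, SE 0.08, edgeR adjusted p 5.69e-09). *skn-1*, *nit-1*, *gsr-1* and *gpx-1* each overlap a gene on the other strand. Over the 8 libraries the overlapping gene held 12975 counts against 5206 for *nit-1*, 6357 against 13740 for *gsr-1* and 1571 against 3636 for *gpx-1*. For *skn-1* these were *csn-5*, with 3997 counts against 24672, and *clec-178*, with 610. Whether the counting used strand is not given in the sources used here, so these values are uncertain. No gene of this list was called for the interaction.

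Cytochrome P450 genes, which oxidise foreign compounds, changed in both directions. Of 64 tested members, 19 (29.7%) were called higher and 18 (28.1%) lower, against 4.65% and 2.67% of all tested genes. Scaled by total counts or by DESeq2 size factors, 18 were called in each direction, so which direction held more members depended on the scaling. *cyp-13A10* (174522, chromosome II, 9660839 to 9662884) had 7.28, 7.25, 5.96 and 8.73 CPM with curcumin and 150.5, 144, 125 and 131 CPM with the combination. The 8 values formed separate groups (log2 change 4.23, SE 0.10, edgeR adjusted p 4.66e-20), and the change without curcumin was 4.22. *cyp-33C2* rose by a log2 change of 3.56 (edgeR adjusted p 1.51e-13) and *cyp-13A3* by 3.50 (edgeR adjusted p 6.63e-16).

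*cyp-14A3* (187185, chromosome X, 13271837 to 13274202) had the largest fall of the family. It had 214, 221, 195 and 188 CPM with curcumin and 4.3, 6.03, 8.19 and 4.9 CPM with the combination. All combination libraries were below 10 CPM (log2 change -5.13, SE 0.18, edgeR adjusted p 2.86e-16). The level was 41.9 ± 11.2 CPM in untreated worms and 2.66 ± 0.923 CPM with sulforaphane alone (SD, n = 4), so the combination was nearer to sulforaphane alone than to either group without sulforaphane. *cyp-35A2*, a xenobiotic-responsive P450 gene, fell from 139.7 ± 20.7 to 52.3 ± 5.73 CPM (SD, n = 4; log2 change -1.42, SE 0.10, edgeR adjusted p 1.6e-10), and it fell without curcumin too, from 85.7 ± 7.28 to 42.6 ± 3.86 CPM. *cyp-14A2* fell with curcumin present (log2 change -0.91) and fell further without it (-1.98), and the difference of 1.07 passed the interaction test (SE 0.21, edgeR adjusted p 0.00983).

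Among the enzymes and pumps of the later steps, most called changes were rises. Of 62 tested UDP-glucuronosyltransferases, 18 (29%) were called higher and 2 (3.23%) lower, against 4.65% and 2.67% of all tested genes. Their median log2 change was 0.25. *ugt-25* had 397, 398, 394 and 387 CPM with curcumin and 1020, 963, 978 and 834 CPM with the combination. Every combination library held more than any curcumin library (log2 change 1.27, SE 0.07, edgeR adjusted p 1.07e-12). *ugt-9* rose by a log2 change of 3.31 (edgeR adjusted p 5.26e-11) and *ugt-62* by 1.03 (edgeR adjusted p 3.85e-11). *ugt-40* rose by 2.47 (edgeR adjusted p 1.33e-11) but overlaps *ugt-37* on the same strand, which held 1350 counts against its 1157.

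Of 51 tested ABC transporters, 7 (13.7%) were called higher and 1 (1.96%) lower, against 4.65% and 2.67% of all tested genes. The count of 1 rose to 2 without combination replicate 1 or 3 and to 3 without combination replicate 2. *pgp-14*, a P-glycoprotein gene, went from 14.4 ± 2.55 to 82.8 ± 6.28 CPM (SD, n = 4; log2 change 2.53, SE 0.17, edgeR adjusted p 5.22e-11). Its neighbour *pgp-12* rose from 9.42 ± 1.02 to 23.2 ± 1.51 CPM (SD, n = 4; edgeR adjusted p 3.43e-08). *pgp-1* rose by 1.19 (edgeR adjusted p 1.96e-06) and *mrp-7*, of the multidrug resistance protein family, by 0.69 (edgeR adjusted p 9.27e-07) on the log2 scale. Flavin monooxygenases, another class of oxidising enzymes, were split. Of the 4 tested members, *fmo-3* (log2 change 0.78, edgeR adjusted p 5.34e-06) and *fmo-4* (0.40, edgeR adjusted p 0.00043) rose, and *fmo-5* fell (-0.69, edgeR adjusted p 1.53e-05). The fall of *fmo-5* differed from its change of 0.08 without curcumin (interaction -0.77, edgeR adjusted p 0.0034).

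Among the 12 largest rises were several enzymes with a dehydrogenase or oxidase domain. *stdh-2* (184337, chromosome V, 16224327 to 16225655), annotated as a putative steroid dehydrogenase, had 2.07, 2.3, 1.27 and 1.44 CPM with curcumin and 297, 299.8, 338 and 266 CPM with the combination. It rose by 7.40 on the log2 scale with curcumin (SE 0.13, edgeR adjusted p 6.96e-23) and by 7.35 without. *C15B12.8*, which carries an FAD-dependent oxidoreductase domain per the deposited annotation, rose by a log2 change of 6.69 (edgeR adjusted p 3.13e-20). *ZK697.14*, with a short-chain dehydrogenase domain, rose by 6.91 (edgeR adjusted p 6.89e-13), or by 8.16 without curcumin replicate 3. *cdr-4* (259654, chromosome V, 12407366 to 12408625), a cadmium-responsive gene with glutathione S-transferase-like domains, had 57.9, 53.1, 51.6 and 51.1 CPM with curcumin and 1185, 1126, 1039 and 923 CPM with the combination. Its groups did not overlap (log2 change 4.32, SE 0.12, edgeR adjusted p 5.54e-19). The related *cdr-2* rose by 0.65 (edgeR adjusted p 1.11e-05). Their list of 30 tested metallothionein, cadmium-responsive and ferritin genes was split, with 4 (13.3%) called higher and 4 (13.3%) lower. Over all tested genes the shares were 4.65% and 2.67%. In the list 15 members were above 0 and 15 below, and the largest called fall was -3.82.

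**Figure D2:**
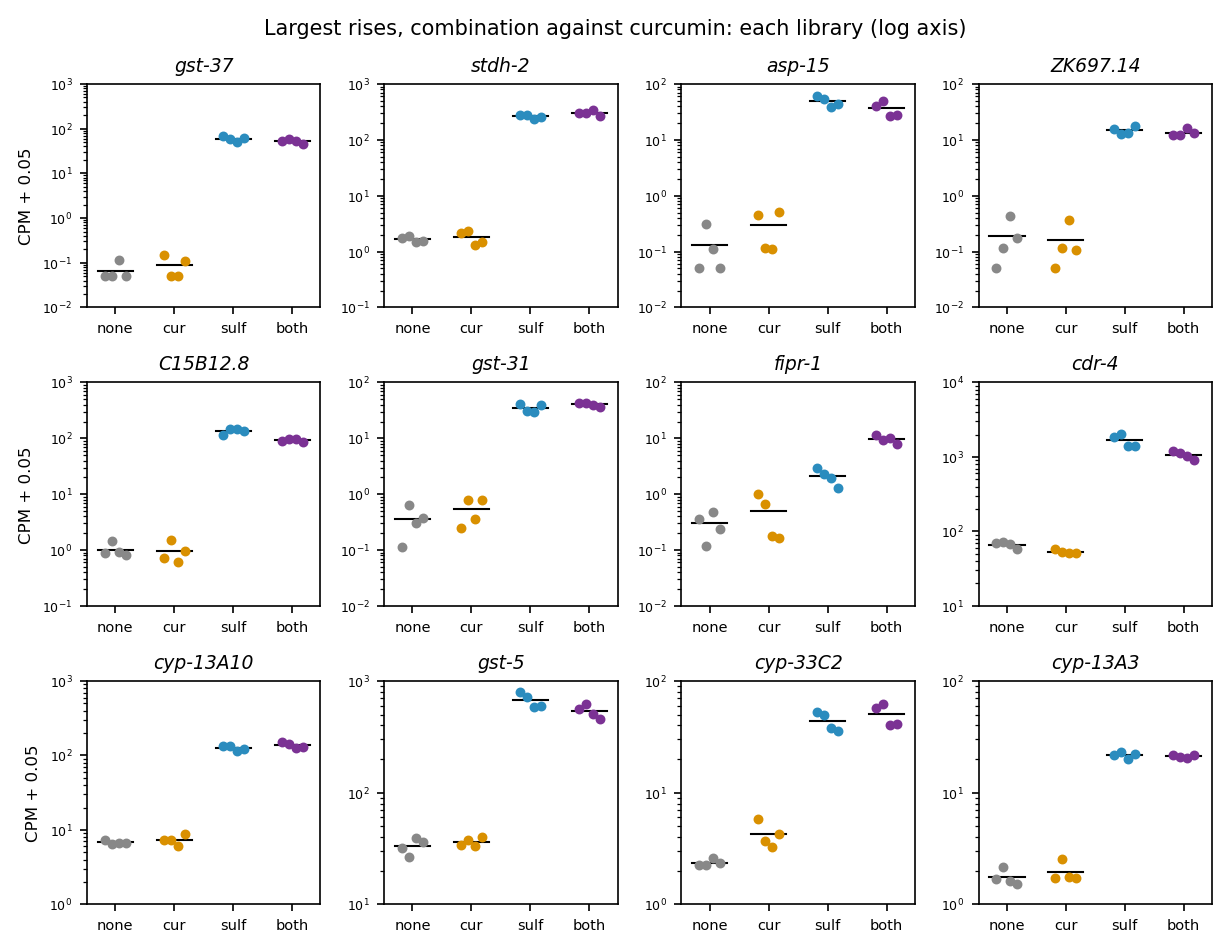
CPM (plus 0.05, log axis) of the 12 genes with the largest rises, in every library of untreated worms (none), curcumin (cur), sulforaphane (sulf) and the combination (both); each point is a library and each bar the group mean. In all 12 panels the curcumin points lie beside the untreated ones and the combination points lie far above them, near those of sulforaphane alone except in *fipr-1*, where the combination mean was 9.64 CPM and that of sulforaphane alone 2.06 CPM.

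Sulfur metabolism changed in a few genes. In the list of 21 tested genes of hydrogen sulfide handling, transsulfuration and the HIF-1 pathway, 5 (23.8%) were called higher and 1 (4.76%) lower. Over all tested genes the shares were 4.65% and 2.67%. Without combination replicate 3 the counts of the list were 3 and 2. *sqrd-1*, sulfide quinone oxidoreductase, which oxidises hydrogen sulfide in mitochondria, had 78.8, 97.4, 94.1 and 94.5 CPM with curcumin and 39.7, 55.2, 57.1 and 47.2 CPM with the combination. No combination library reached the lowest curcumin library (log2 change -0.87, SE 0.11, edgeR adjusted p 7.56e-06). It fell without curcumin as well, from 51.3 ± 4.96 to 32.5 ± 5.92 CPM (SD, n = 4). *cysl-2*, a cysteine synthase family gene and known target of HIF-1, rose by 0.71 (edgeR adjusted p 1.62e-05), *cth-1*, cystathionine gamma-lyase, by 0.47 (edgeR adjusted p 0.00288) and *cdo-1*, cysteine dioxygenase, by 0.31 (edgeR adjusted p 0.00161) on the log2 scale. The groups of *cth-1* overlapped because of combination replicate 1, at 22.3 CPM. *cysl-2* overlaps *vnut-1* on the other strand, which held 1421 counts against 4173, and *cdo-1* overlaps *F56F10.2*, which held 1705 against 12316. *sod-1*, the cytosolic superoxide dismutase, rose by 0.52 (edgeR adjusted p 0.000207). It was the only call among 10 tested superoxide dismutases, catalases and peroxiredoxins, and 9 were not called.

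Genes of the response to microbes changed in both directions. Of 118 tested C-type lectin genes, which encode secreted carbohydrate-binding proteins, 12 (10.2%) were called higher and 19 (16.1%) lower. The shares over all tested genes were 4.65% and 2.67%. The interaction was called for 15 of the lectin genes, against 0.991% of all tested genes. In a fit to the curcumin and combination libraries alone, 7 lectin genes were higher. *clec-60*, a lectin gene known to respond to *Staphylococcus aureus*, had 120.3, 99.6, 92.5 and 89.5 CPM with curcumin and 38.1, 37.2, 42.2 and 36.6 CPM with the combination. The groups were separate (log2 change -1.38, SE 0.10, edgeR adjusted p 2.73e-10). *clec-52* fell by a log2 change of -1.66 (edgeR adjusted p 5.43e-12). *clec-18* had 192 reads in the curcumin libraries and 2 in the combination libraries, both in replicate 4, a ratio of 87.8 with an exact Poisson 95% interval from 24.3 to 725.

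Of 12 tested lysozymes, which digest bacterial cell walls, 4 (33.3%) were called lower and none higher, against 2.67% and 4.65% of all tested genes. *lys-7* (178772, chromosome V, 3481432 to 3482600) had 12599, 12606, 11996 and 12268 CPM with curcumin and 6040.4, 7086, 6419 and 6699.7 CPM with the combination. Every combination library was below every curcumin library (log2 change -0.91, SE 0.06, edgeR adjusted p 1.71e-10). Without curcumin the level went from 19065 ± 1453 to 15756 ± 348 CPM (SD, n = 4; log2 change -0.27), and the interaction of -0.64 passed the test (SE 0.09, edgeR adjusted p 0.000232). *ilys-3* and *ilys-2*, invertebrate-type lysozymes, fell by log2 changes of -2.73 (edgeR adjusted p 5.38e-06) and -1.54 (edgeR adjusted p 6.08e-06). *cht-1*, a chitinase gene, fell from 46.3 ± 26.3 to 6.51 ± 1.63 CPM (SD, n = 4; log2 change -2.84, SE 0.29, edgeR adjusted p 1.33e-07). *cht-1* overlaps *slcf-2* on the other strand, which held 515 counts against 3641.

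The 2 largest falls by rule were in neighbouring genes on opposite strands of chromosome V. *asp-18* (191310, 18730174 to 18731679), an aspartyl protease gene, had 56.3, 47.2, 41.8 and 44.2 CPM with curcumin and 0, 0.0686, 0.0677 and 0.969 CPM with the combination. *scl-19* (191308, 18731991 to 18732772), which encodes an SCP-domain secreted protein, had 25.6, 22.8, 16.4 and 24 CPM with curcumin and 0, 0.0686, 0 and 0.484 CPM with the combination. Both transcripts were present in each curcumin library and nearly absent from the combination, where replicate 4 held most of the reads. The log2 changes were -7.31 (SE 0.66, edgeR adjusted p 1.99e-08) and -7.18 (SE 0.52, edgeR adjusted p 3.71e-10), and -9.83 and -9.54 without combination replicate 4. In untreated worms the levels were 2.93 ± 3.15 and 0.897 ± 0.903 CPM, and with sulforaphane alone 0.55 ± 1.06 and 0.11 ± 0.22 CPM (SD, n = 4). *scl-11*, another gene of the SCP-domain family, fell from 35.8 ± 19.2 to 2.97 ± 0.88 CPM (SD, n = 4; log2 change -3.59, SE 0.30, edgeR adjusted p 5.19e-09).

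**Figure D3:**
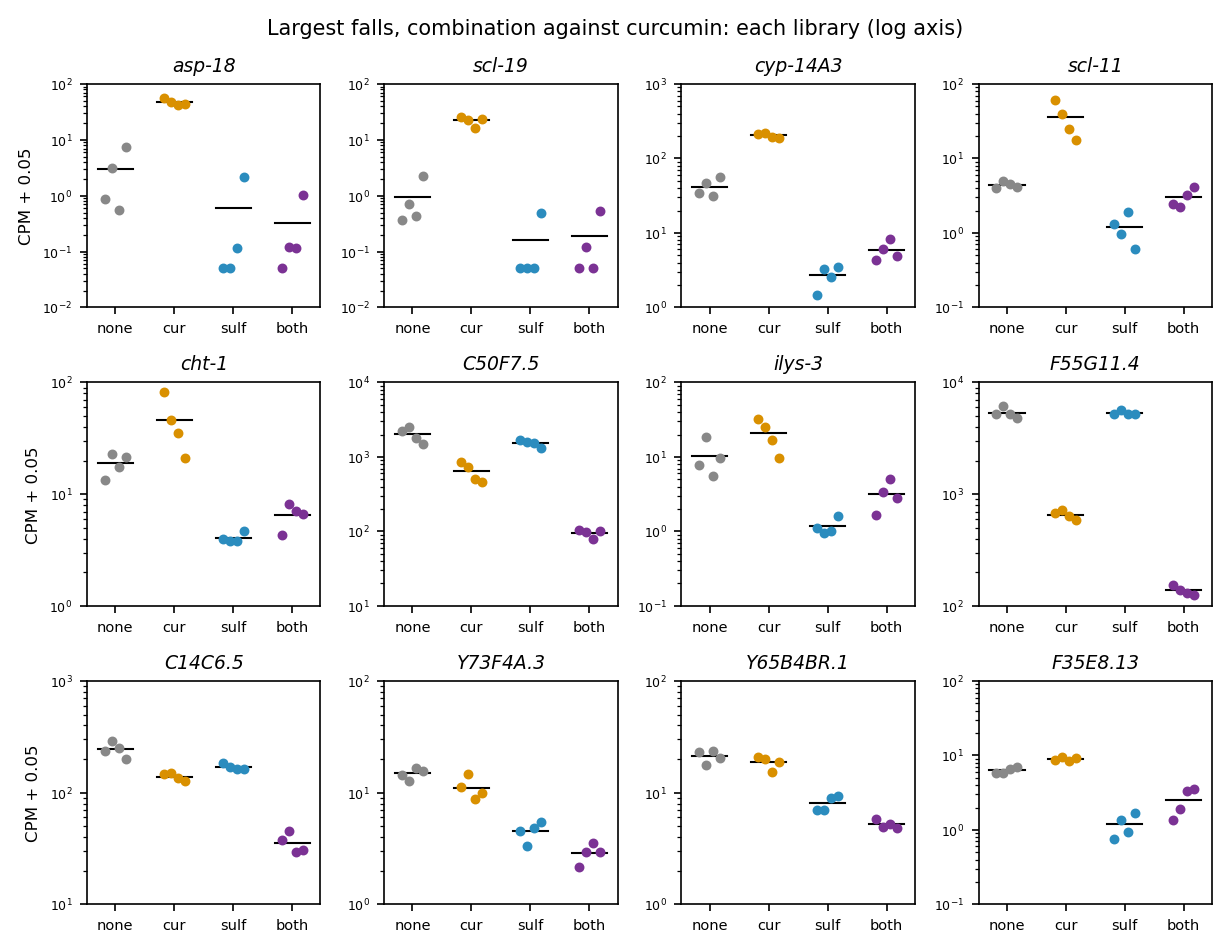
CPM (plus 0.05, log axis) of the 12 genes with the largest falls, in every library of untreated worms (none), curcumin (cur), sulforaphane (sulf) and the combination (both); each point is a library and each bar the group mean. In *asp-18*, *scl-19*, *cyp-14A3*, *scl-11* and *cht-1* the curcumin group is the highest of the 4, while in *F55G11.4* and *C50F7.5* the untreated and sulforaphane groups are high and the combination is the lowest.

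In the 36 tested CUB-like and infection response genes, secreted or intestinal genes regulated in immunity, 6 (16.7%) were called higher and 9 (25%) lower. The shares over all tested genes were 4.65% and 2.67%. Without curcumin, 15 genes of the list were called higher and 2 lower, against 4.33% and 2.37% of all tested genes. The interaction was called for 10 of the list, against 0.991% of all tested genes. *C50F7.5* was put on this list with its earlier results known, so its fall is no independent evidence for the list. *F55G11.4* (178248, chromosome IV, 12973624 to 12975603), a CUB-like domain gene, had 675, 723, 634 and 590.0 CPM with curcumin and 153, 140.1, 132 and 126.4 CPM with the combination. The combination was lowest of all 4 groups, since untreated worms had 5344 ± 552 and worms on sulforaphane alone 5362 ± 239 CPM (SD, n = 4). The log2 change was -2.25 with curcumin (SE 0.08, edgeR adjusted p 3.32e-16) and 0.01 without, and the difference of -2.25 passed the interaction test (SE 0.11, edgeR adjusted p 2.94e-12). *dod-24*, a CUB-like gene downstream of DAF-16, showed the same order at lower levels: 199 ± 11.37 CPM with sulforaphane alone, 197 ± 20.8 untreated, 74.7 ± 5.96 in the curcumin group and 38.4 ± 7.62 in the combination group (SD, n = 4; interaction -0.98, edgeR adjusted p 0.000456). *irg-5*, an infection response gene, moved the other way, by a log2 change of 1.44 with curcumin (SE 0.11, edgeR adjusted p 7.06e-10) and 1.45 without.

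Small secreted peptides of the caenacin, fungus-induced protein and related antimicrobial families rose in 10 of 31 tested members (32.3%) and fell in 2. The 2 falls made up 6.45%, and over all tested genes 4.65% were called higher and 2.67% lower. Without combination replicate 3 the number that rose was 6, and on log2(FPKM + 0.1) it was also 6. *cnc-2* had 7.69, 9.15, 9.76 and 9.31 CPM with curcumin and 16.6, 16.1, 24.9 and 23.5 CPM with the combination. The groups were separate (log2 change 1.18, SE 0.13, edgeR adjusted p 8.58e-07). *fipr-1* rose from 0.453 ± 0.41 to 9.64 ± 1.46 CPM (SD, n = 4; log2 change 4.34, SE 0.37, edgeR adjusted p 6.15e-09), or by 5.09 without curcumin replicate 1. It overlaps *F23H12.5* on the other strand, which held 152 counts against 628.

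Digestive proteases were split, with 7 of 31 tested aspartyl and cysteine protease genes called higher and 7 lower. Each share was 22.6%, against 4.65% higher and 2.67% lower over all tested genes. *asp-15* (189740, chromosome V, 19043215 to 19044853) had 0.405, 0.0678, 0.0634 and 0.46 CPM with curcumin and 41, 50.5, 26.8 and 27.9 CPM with the combination. It was close to absent without sulforaphane in both settings, with 0.0822 ± 0.126 CPM untreated and 49.4 ± 10.4 CPM with sulforaphane alone (SD, n = 4). The log2 change was 7.06 (SE 0.34, edgeR adjusted p 1.14e-13). *asp-17*, near it on the chromosome, had 26.7, 25.6, 29.1 and 23.1 CPM with curcumin and 73.2, 80.4, 72.5 and 81.8 CPM with the combination. Its log2 change of 1.56 (SE 0.08, edgeR adjusted p 3.22e-13) was larger than the 0.63 without curcumin (interaction 0.93, SE 0.11, edgeR adjusted p 2.25e-05). *asp-1*, an abundant intestinal protease, rose from 469 ± 33.4 to 788 ± 128 CPM (SD, n = 4; log2 change 0.75, edgeR adjusted p 4.9e-06), beside 1411 ± 167 CPM in untreated worms. *cpr-9*, of the cathepsin B family, rose from 382 ± 18.3 to 586 ± 14.33 CPM (log2 change 0.62, edgeR adjusted p 2.03e-07), beside 764 ± 65.4 CPM untreated. In these 3 genes the combination lay above curcumin, and *asp-1* and *cpr-9* stayed below the untreated mean.

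Genes of fat metabolism changed in both directions. Of 61 tested genes of fatty acid activation and beta-oxidation, 15 (24.6%) were called higher and 5 (8.2%) lower. The shares over all tested genes were 4.65% and 2.67%. Without curcumin the counts of the list were 6 and 1, against 4.33% and 2.37% of all tested genes. The interaction was called for 6 genes of the list, against 0.991% of all tested genes. The 5 falls became 3 without curcumin replicate 1 or 2 or without combination replicate 2 or 4. *cpt-3* (190055, chromosome III, 2082819 to 2088314), a carnitine palmitoyltransferase that passes fatty acids to mitochondria, had 199, 143.5, 136 and 112 CPM with curcumin and 616, 578, 384 and 449 CPM with the combination. All combination libraries were above all others, since untreated worms had 73 ± 7.41 and worms on sulforaphane alone 60.7 ± 6.83 CPM (SD, n = 4). The log2 change was 1.78 with curcumin (SE 0.14, edgeR adjusted p 2.56e-09) and -0.27 without, and the interaction of 2.05 passed the test (SE 0.20, edgeR adjusted p 2.03e-06). *ech-1.2*, of the mitochondrial trifunctional enzyme, rose by 0.40 with curcumin (edgeR adjusted p 4.83e-05) and by an amount that did not pass the test without (0.02). Its interaction of 0.38 (edgeR adjusted p 0.023) was no longer called when any of 9 of the 16 libraries was left out. *acdh-11*, an acyl-CoA dehydrogenase, rose by 0.39 (edgeR adjusted p 4.63e-05). *hacd-1*, a hydroxyacyl-CoA dehydrogenase, fell by a log2 change of -0.59 (edgeR adjusted p 5.32e-05; interaction -0.87, edgeR adjusted p 0.000331).

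Of 9 tested lipase genes of lysosomes and fat stores, 2 (22.2%) were lower and none higher, and both differed by the interaction test. Among all tested genes 2.67% were lower, 4.65% were higher and 0.991% were called for the interaction. *lipl-5* (178563, chromosome V, 385746 to 387740), a lysosomal lipase gene known to respond to fasting, had 165, 174, 114 and 141 CPM with curcumin and 43.2, 51.6, 43.7 and 36.6 CPM with the combination. Untreated worms had 1112 ± 129 and worms on sulforaphane alone 1127 ± 121 CPM (SD, n = 4), so sulforaphane went with a lower level in the presence of curcumin. The log2 change was -1.76 with curcumin (SE 0.12, edgeR adjusted p 1.05e-10) and 0.02 without (interaction -1.78, SE 0.16, edgeR adjusted p 6.64e-07). *lipl-1* fell from 219.5 ± 4.03 to 110.4 ± 13.7 CPM (SD, n = 4; log2 change -0.99, edgeR adjusted p 8.31e-09; interaction -0.91, edgeR adjusted p 0.000129). *fat-2*, the delta-12 desaturase that makes linoleic acid, fell from 6539.8 ± 663 to 4894 ± 292 CPM (SD, n = 4; log2 change -0.42, edgeR adjusted p 0.000285), with no call without curcumin (0.05) and an interaction of -0.47 (edgeR adjusted p 0.0177) that was not called on FPKM values.

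Some lipid carriers rose. Of 17 tested lipid-binding protein genes, 4 (23.5%) were called higher and none lower, against 4.65% and 2.67% of all tested genes. *lbp-7*, an intracellular fatty acid-binding protein gene, rose from 10.2 ± 1.9 to 32.4 ± 5.29 CPM (SD, n = 4; log2 change 1.66, SE 0.12, edgeR adjusted p 4.11e-10), and *far-3*, a secreted fatty acid- and retinol-binding protein gene, by 0.64 (edgeR adjusted p 8.34e-07). Of the 6 vitellogenin genes, which encode yolk proteins, *vit-3* and *vit-4* were called higher. The summed level of the 6 genes overlapped, at 217800 to 234100 CPM with curcumin and 220800 to 254500 CPM with the combination. How reads shared between vitellogenin genes were counted was not tested. *vit-3* had 4031, 4379.8, 4368 and 4340.1 CPM with curcumin and 6408, 7339, 6269.8 and 6138 CPM with the combination, without overlap (log2 change 0.61, SE 0.07, edgeR adjusted p 5.71e-07). *vit-4* rose by 0.47 (edgeR adjusted p 1.75e-05). Both rose without curcumin too, by 0.45 and 0.74. *bcmo-1*, of the carotenoid oxygenase family, fell from 4.49 ± 0.823 to 1.03 ± 0.427 CPM (SD, n = 4; log2 change -2.12, edgeR adjusted p 7.48e-06).

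The largest differences between both settings were of several kinds. Of the 54 genes above 0, 6 had a mean under 5 CPM over the 16 libraries and a larger interaction than the smallest one described here. Their largest was that of *spp-21*, a saposin-domain gene, with 4.59 ± 0.426 CPM in the curcumin group and 9 ± 2.55 CPM in the combination group, but 0.37 ± 0.148 CPM untreated and 0.0834 ± 0.0387 CPM with sulforaphane alone (SD, n = 4). It rose with curcumin (log2 change 0.97, edgeR adjusted p 0.00136) and fell without (-2.06, edgeR adjusted p 0.028), and the interaction was 3.04 (SE 0.60, edgeR adjusted p 0.00941). The sulforaphane libraries held 1 or 2 reads of it each. Among the 5 largest above 0 with a mean of at least 5 CPM, besides *cpt-3*, were *clec-61*, *sodh-1* and *cyp-14A2*, each of which had a called fall without curcumin and a smaller change with it. *clec-61* was 16.22 ± 1.35 CPM with curcumin and 15.2 ± 2.38 CPM with the combination, but 16.22 ± 3.9 untreated and 4.42 ± 0.918 CPM with sulforaphane alone (SD, n = 4; interaction 1.78, SE 0.22, edgeR adjusted p 5.92e-05). *sodh-1*, an alcohol dehydrogenase family gene, fell by a log2 change of -1.35 with curcumin and -2.71 without (interaction 1.35, edgeR adjusted p 0.00941). *clec-218* rose from 66.3 ± 3.49 to 116.7 ± 12.1 CPM (SD, n = 4; log2 change 0.82), while its change of -0.25 without curcumin was not called (interaction 1.06, edgeR adjusted p 0.000321). *nlp-34*, a neuropeptide-like gene of the antimicrobial group, rose from 8.41 ± 1.05 to 15.6 ± 6.24 CPM (SD, n = 4; edgeR adjusted p 0.0182), a call lost without curcumin replicate 1 or 4 or combination replicate 3 or 4. The interaction of 1.54 (edgeR adjusted p 0.0463) was no longer called with DESeq2 size factors, with total counts, or when any of 12 of the 16 libraries was left out.

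On the other side, 4 of the 88 genes below 0 had a mean under 5 CPM, and the 5 largest of the others were *clec-209*, *C50F7.5*, *F55G11.4*, *lipl-5* and *spp-12*. *C50F7.5* (177554, chromosome IV, 7726719 to 7727639), an uncharacterised gene, had 850.1, 741, 509 and 467 CPM with curcumin and 105, 98.9, 79.2 and 102 CPM with the combination. Its combination values were all below those of the other 3 groups, with 2030.3 ± 463 CPM untreated and 1538 ± 165 CPM with sulforaphane alone (SD, n = 4). The log2 change was -2.73 (SE 0.17, edgeR adjusted p 1.69e-11) and the interaction -2.33 (SE 0.22, edgeR adjusted p 1.44e-06). *C14C6.5*, with an ShK-like domain, fell by a log2 change of -1.96 with curcumin and -0.51 without (interaction -1.45, edgeR adjusted p 5.86e-06). *spp-12*, a saposin-domain gene, rose in both settings, from 269.8 ± 35.1 to 467 ± 18.7 CPM with curcumin and from 3.23 ± 0.562 to 16.1 ± 3.27 CPM without (SD, n = 4), so the log2 change was smaller with curcumin, at 0.79 against 2.32 (interaction -1.53, edgeR adjusted p 2.74e-05). The interaction of *clec-209* was -4.53 (SE 0.92, edgeR adjusted p 0.0106), but its libraries varied widely, from 4.76 to 25.2 CPM with curcumin and from 0.666 to 5.14 CPM with the combination, and the groups overlapped. The interaction was -5.68 without combination replicate 2 and -5.14 without control replicate 1.

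**Figure D4:**
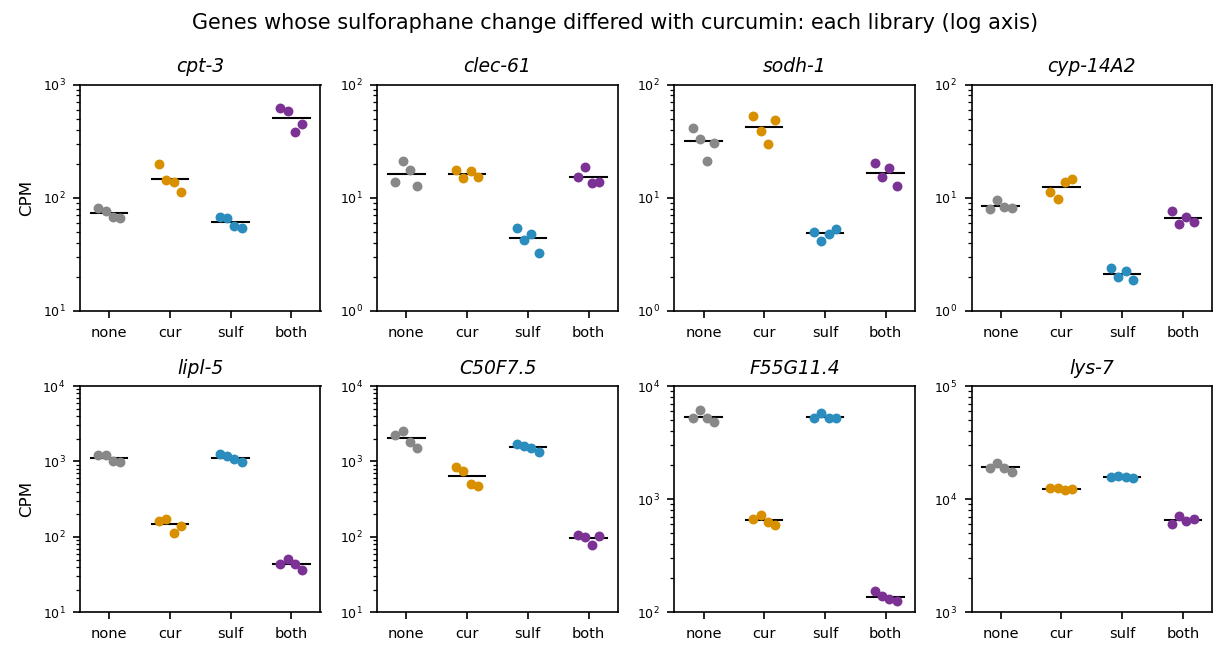
CPM (log axis) in every library of untreated worms (none), curcumin (cur), sulforaphane (sulf) and the combination (both) for 8 genes called for the interaction; each point is a library and each bar the group mean. In *lipl-5*, *C50F7.5*, *F55G11.4* and *lys-7* the combination points are the lowest of the 4 groups, and in *cpt-3* they are the highest, at a mean of 507 CPM.

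Of 22 tested cytosolic heat shock genes 2 (9.09%) were called higher and none lower, against 4.65% and 2.67% of all tested genes. In the list 19 of 22 members were above 0, with a median log2 change of 0.0965. A member called higher overlaps *F52E1.14* on the other strand, so its values are uncertain. Over the 8 libraries *F52E1.14* held 52612 counts, against 2940 for that member. *hsp-70*, a heat shock gene that overlaps *uggt-2* on the other strand (252 counts against its 649), did not pass the test at 4.53 ± 0.443 and 5.56 ± 1.07 CPM (SD, n = 4; edgeR adjusted p 0.526). The list for endoplasmic reticulum stress, which includes the abu and pqn families, had 6 of 68 tested genes (8.82%) lower and none higher. All 6 belong to those families, and no other gene of the list was called. Whether these 6 genes report on such stress was not tested. *hsp-4*, the worm BiP chaperone, was 105.2 ± 4.06 and 110.3 ± 9.8 CPM (edgeR adjusted p 0.733), while without curcumin it rose from 161.5 ± 11.8 to 242 ± 27.6 CPM (SD, n = 4); the difference was called (interaction -0.51, edgeR adjusted p 0.0168). None of 33 proteasome subunits was called, with 28 of 33 above 0 and a median log2 change of 0.09, and 6 were called higher without curcumin. No member of the 67 mitochondrial ribosomal proteins or of the 50 genes of the respiratory chain and ATP synthase was called. Both lists leaned lower, with 45 of 67 and 43 of 50 members below 0 and median log2 changes of -0.06 and -0.09. At an unadjusted p under 0.05, 2588 of all tested genes passed in this comparison.

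Cytosolic ribosomal protein genes leaned lower. Of 81 tested, 74 were below 0 and the median log2 change was -0.18. None was called higher and 7 (8.64%) were called lower, against 2.67% of all tested genes. Among the 7 were *rpl-6* (-0.24, edgeR adjusted p 0.0195) and *rps-17* (-0.27, edgeR adjusted p 0.0114). The number called depended on the libraries: leaving out any 1 of the 8 moved it by over 1.5 times, to between 2 without curcumin replicate 4 and 30 without curcumin replicate 3. It was 11 with DESeq2 size factors and 20 when scaled by total counts. The call for *rpl-6* was lost without curcumin replicate 4 (adjusted p 0.0797). In glycolysis and the citric acid cycle 6 of 47 genes were higher, a larger share than the 4.65% of all tested genes. Only 1 was lower, a smaller share than the 2.67% of all tested genes. It was *cts-1*, citrate synthase (log2 change -0.29, edgeR adjusted p 0.00674). The 6 became 1 to 3 without any 1 of the curcumin replicates or without combination replicate 1 or 2.

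Of the remaining lists, hedgehog-related and patched-related genes, which act in the cuticle and in sterol handling, had 9 of 48 tested members (18.8%) higher. None was lower, and the median log2 change was 0.29. Over all tested genes 4.65% were higher and 2.67% lower. *ptr-22* rose from 14.6 ± 1 to 57.2 ± 11.6 CPM (SD, n = 4; log2 change 1.97, SE 0.17, edgeR adjusted p 5.49e-09) and *ptc-3*, a patched homolog, by 0.51 (edgeR adjusted p 0.000233). Transthyretin-related genes had 8 of 49 (16.3%) higher and 5 (10.2%) lower, with *ttr-29* at a log2 change of -1.26 (edgeR adjusted p 9.51e-07). Nuclear hormone receptor genes had 7 of 200 higher and 6 lower, shares close to those of all tested genes. Of 34 tested genes of the insulin pathway none was higher and 2 (5.88%) were lower. Among these was *ins-19*, an insulin-like peptide gene (log2 change -1.58, SE 0.17, edgeR adjusted p 3.04e-07). *ins-19* fell by a like amount without curcumin (-1.51). Without combination replicate 4 the count of 2 was 1.

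**Figure D5:**
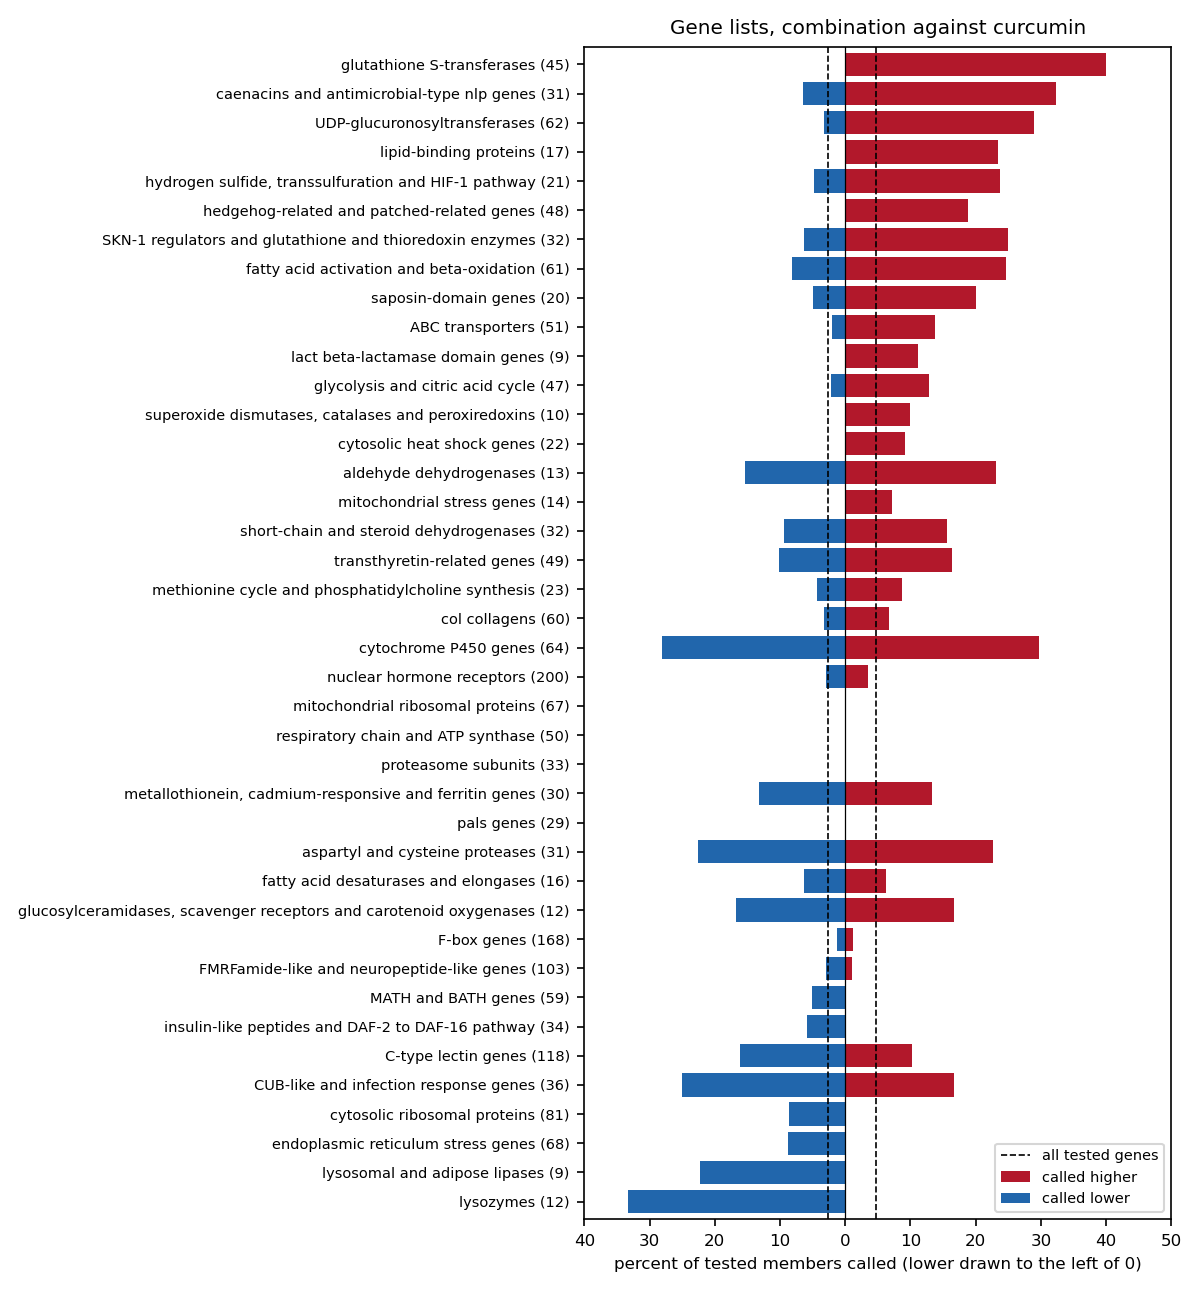
Percent of the tested members of each gene list (number tested in brackets) that were called higher, drawn to the right of 0, or lower, drawn to the left, in the combination against curcumin; lists with at least 9 tested members are shown. The dashed lines mark the shares over all tested genes, 4.65% higher and 2.67% lower; glutathione S-transferases reach 40% higher and lysozymes 33.3% lower.

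Some of the largest falls lay outside the lists. *Y73F4A.3*, *Y65B4BR.1* and *F35E8.13* fell by log2 changes of -1.95 (edgeR adjusted p 2.72e-08), -1.87 (edgeR adjusted p 2.9e-10) and -1.85 (edgeR adjusted p 1.88e-06), and each fell without curcumin as well, by -1.72, -1.40 and -2.44. *F35E8.13* overlaps *nhr-108* on the other strand, which held 607 counts against 756.

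Markers of tissues were summed per library to see whether the makeup of the worms moved with the treatment. For the counts of called markers, the shares over all tested genes were 4.65% higher and 2.67% lower. Pharynx markers summed to 583 to 649 CPM with curcumin and 706 to 864 CPM with the combination. The groups did not overlap, but the listed genes differed: of 14 tested, *phat-7*, a pharyngeal gland gene, rose (log2 change 0.98, edgeR adjusted p 5.82e-08) together with 1 other gene, *pha-4*, the FoxA factor of the foregut, fell (-0.44, edgeR adjusted p 0.00108), and *phat-1* and *phat-5* had no read. Intestine markers summed to 3260 to 3791 and 3577 to 4192 CPM, with means of 3514 and 3807 CPM. The sum includes *asp-1*, described above, which was called higher and went from a mean of 469 to 788 CPM. *ges-1*, the gut esterase, was called higher (log2 change 0.27, edgeR adjusted p 0.0413). *pept-1*, the intestinal peptide transporter, was called lower (-0.91, edgeR adjusted p 0.000202), and 7 of 11 markers were not called. The call for *ges-1* was lost when any of 7 of the 8 libraries was left out. Body-wall muscle markers summed to 3189 to 3878 and 3478 to 4392 CPM, with 15 of 16 above 0, and *unc-54*, the major body-wall myosin, did not pass the test (edgeR adjusted p 0.439). Neuron markers summed to 1135 to 1227 and 1158 to 1255 CPM. Germ line and oocyte markers summed to 9346 to 10660 and 7917 to 10950 CPM, of which *perm-2* and *perm-4* made up most; without these, the sums were 575 to 767 and 570 to 698 CPM. Of 28 tested germ line markers 21 were below 0, with a median log2 change of -0.09, and 1 was called lower. Sperm markers summed to 171 to 238 and 158.9 to 208.6 CPM, with 7 sperm genes at 3 or fewer reads in every library. Of 49 tested sperm markers 40 were below 0, with a median log2 change of -0.31, and 1 was called lower; without curcumin the median was -0.45. The part of these sums in the changes of other genes was not tested.

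The called genes were spread unevenly over the chromosomes. On chromosome V, 225 genes were higher and 126 lower, 12.1% of the 2903 tested there, against 3.93% to 8% on the other nuclear chromosomes. *stdh-2*, *gst-37*, *cdr-4*, *asp-15*, *lipl-5*, *lys-7*, *asp-18* and *scl-19* all lie on chromosome V. None of the 14 tested mitochondrial genes was called.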

How the data were processed

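Whole-worm polyA RNA of 16 libraries was sequenced. The files deposited by the authors hold raw gene-level read counts and FPKM values for every library. The submitters' processing notes name HISAT2 2.0.5, StringTie 1.3.3b, featureCounts 1.5.0-p3, DESeq2 1.20.0 and the build WBcel235, without roles; strandedness and the handling of shared reads are not given in the sources used here. The count table lists 47029 genes, 93 of them loci outside the reference annotation.

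Genes were kept by filterByExpr (minimum count 10, minimum total 15), which left 14328. Counts were analysed in edgeR 4.0.16 under R 4.3.3 with TMM scaling and a quasi-likelihood fit of 1 mean per group to all 16 libraries (12 residual degrees of freedom). Tests were two-sided and adjusted by the Benjamini-Hochberg method over all tested genes; calls were made at a threshold of 0.05. The interaction is the change from curcumin to combination minus the change from control to sulforaphane. The SE is the size of the log2 change divided by the square root of F. A log2 CPM used a prior count of 2. Ratios for genes with 3 or fewer reads in a group carry exact Poisson intervals, which cover counting error only.

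Genes were named by a rule: the 12 largest rises and falls with a mean of at least 5 CPM and no overlap, the 5 largest called interactions on each side with a mean of at least 5 CPM over all 16 libraries, up to 4 called members per list, and textbook members. A further 43 gene lists and 8 tissue marker lists were described by counts and medians, with no set test. The comparison, rule and lists were chosen with earlier results of these data known. No library was a duplicate of another within the curcumin group or within the combination group, and other pairs were not checked. Alternatives (DESeq2 size factors, total counts, other filters, the DESeq2 1.42.0 Wald test, limma-trend 3.58.1 on the authors' FPKM, the replicate block, a fit to the compared groups, a fold condition, and leaving out each library) were computed, and the statistics were tested on simulated data. Promoter sequences were not analysed here.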

Additional observations from a re-analysis of the deposited data

Results flagged for a closer look

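Among 192 groups of 4 values examined for the genes named above, 12 had 1 library far from the other 3, where chance flags about 1 in 20 groups. In the combination group, replicate 4 stood apart for *ugt-62* (461 CPM), *pgp-14* (73.5 CPM), *hsp-4* (125 CPM), *asp-18* (0.969 CPM), *scl-19* (0.484 CPM) and *clec-18* (0.121 CPM), replicate 1 for *cth-1* (22.3 CPM), replicate 2 for *clec-209* (5.14 CPM) and replicate 3 for *rpl-6* (739 CPM). In the curcumin group, replicate 1 stood apart for *vit-3* (4031 CPM) and *vit-4* (6525 CPM) and replicate 2 for *cyp-13A3* (2.51 CPM).

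The change from adding sulforaphane differed with and without curcumin, by the interaction test in edgeR, for 22 of the named genes. The log2 change was more positive with curcumin for *spp-21* by 3.04, *cpt-3* by 2.05, *clec-61* by 1.78, *nlp-34* by 1.54, *sodh-1* by 1.35, *cyp-14A2* by 1.07, *clec-218* by 1.06, *asp-17* by 0.93 and *ech-1.2* by 0.38. It was more negative for *clec-209* (-4.53), *C50F7.5* (-2.33), *F55G11.4* (-2.25), *lipl-5* (-1.78), *spp-12* (-1.53), *C14C6.5* (-1.45), *dod-24* (-0.98), *lipl-1* (-0.91), *hacd-1* (-0.87), *fmo-5* (-0.77), *lys-7* (-0.64), *hsp-4* (-0.51) and *fat-2* (-0.47).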

How the results depend on the processing

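The number of genes called for the combination against curcumin, 1049, was 858 to 1526 over the alternatives that kept the threshold, and 868 to 1011 when 1 library was left out. A fold change of at least 2 as an added condition left 234 genes, 209 without curcumin and 39 for the interaction. The 142 genes of the interaction became 352 when every gene with a read was tested, 224 with the DESeq2 Wald test and 105 to 156 when 1 library was left out; without curcumin the count of 961 was 728 to 894 when 1 library was left out. The share of higher genes was 63.5%, and 54.2% when scaled by total counts. With the replicate number as a block, 1526 genes were called, 1469 without curcumin and 318 for the interaction. Same-numbered curcumin and combination libraries had residual correlations of 0.0458 to 0.178, with 2 of 4 pairs over 0.1, and 6 of the 8 libraries correlated best with their own number. This is a hint from the data only, since nothing in the labels says that a number marks libraries handled together.

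Of the 96 named genes 91 were called for this comparison. Their result kept its direction and its side of the threshold in 800 of 807 alternatives and in 714 of 728 fits without 1 library, and none reversed. The exceptions were in *gcs-1*, *rpl-6*, *ges-1* and *nlp-34*. Many named genes were chosen for large changes or small p-values in these same data. That selection favours stable results, so these counts do not describe the 1049 called genes as a whole. On log2(FPKM + 1), the interactions of *sodh-1*, *cyp-14A2*, *clec-209*, *lys-7*, *fat-2* and *nlp-34* did not pass (adjusted p 0.065, 0.0929, 0.085, 0.0512, 0.113 and 0.117). Genes with few reads in 1 group have folds limited by depth.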
